A study of Mus musculus with 10 samples.

Results

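Expression of 10 genes that encode metabolic nuclear receptors of the heart and their coactivators was examined in *Rit1* M90I/+ mice given the MEK inhibitor trametinib or vehicle. They are the 3 peroxisome proliferator-activated receptors (*Ppara*, *Ppard* and *Pparg*), the 3 estrogen-related receptors (*Esrra*, *Esrrb* and *Esrrg*), both thyroid hormone receptors (*Thra* and *Thrb*) and the coactivators PGC-1α and PGC-1β (*Ppargc1a* and *Ppargc1b*). They were chosen by gene symbol and not by a rule on their values, but with earlier results of these data known. They are 10 of the 54532 genes in the deposited expression table. All 10 passed the filter on low expression, a mean of at least 0.5 FPKM (fragments scaled by gene length and a library size factor) over all hearts.

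The 10 libraries of poly(A)-selected RNA are labelled as biological replicates, with 1 library per heart. All mice carried *Rit1* M90I/+, a heterozygous substitution in a RAS-family GTPase, which the study obtained by crossing conditional homozygous males with cytomegalovirus-Cre deleter females, so that the allele was not confined to the heart. Vehicle hearts (n = 5) came from mice given the carrier alone, and MEKi hearts (n = 5) from mice given trametinib, an allosteric inhibitor of MEK1 and MEK2, at 1 mg/kg once a day. Dosing ran for 20 weeks from 4 weeks of age in both groups, and the last dose preceded euthanasia by 2 hours. No *Rit1* wild-type heart was analysed here, male and female littermates entered the study, no sex was recorded for a heart in the labels, and which part of the heart gave RNA is not stated in the sources used here.

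Nuclear receptors are transcription factors that a small lipophilic ligand can switch on. PPARs respond to fatty acids and, paired with a retinoid X receptor, raise genes for fatty acid uptake and oxidation, while thyroid hormone receptors set contractile, ion channel and metabolic genes according to the level of thyroid hormone. Estrogen-related receptors have no known natural hormone and depend on PGC-1 coactivators, with which they drive the genes of mitochondrial oxidative metabolism that supply the beating heart with ATP.

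Each heart had between 13647167 and 18474002 fragments assigned to genes (median, 15215992). The hearts were also divided by sex-linked transcripts exactly as they were by treatment. *Xist*, the RNA of the inactive X chromosome, was at 5.16 to 6.85 FPKM in MEKi hearts and did not exceed 0.00662 FPKM in vehicle hearts, whereas the Y-linked *Ddx3y* was at 10.3 to 12.2 FPKM in vehicle hearts and listed at 0 in every MEKi heart. Any difference given here is therefore one between groups that differ in both respects, and the part of each cannot be told apart. All 8 cardiomyocyte markers examined were detected, with a summed level of 18694 to 25569 FPKM in vehicle hearts and 17737 to 25353 FPKM in MEKi hearts. Some libraries stood apart in the markers of other tissue. Atrial markers summed to 2196, 842 and 1136 FPKM in vehicle 4, vehicle 5 and MEKi 2, against 143 to 473 FPKM in the others, and red cell markers to 23639 and 25874 FPKM in vehicle 4 and vehicle 5, against 2899 to 7386 FPKM in the others. In whole tissue, fewer cells of a type and less RNA per cell cannot be told apart.

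The members covered a wide range of levels, and 1 of them led in every heart. *Esrra*, which encodes ERRα, had a mean of 69.8 FPKM over the 10 hearts, 5.75 times that of *Thra*, the gene of thyroid hormone receptor α, at 12.1 FPKM. *Ppargc1a* followed at 9.47 FPKM. Below them came *Esrrb* (4.17 FPKM), *Esrrg* (3.76 FPKM), *Ppard* (2.88 FPKM), *Pparg* (2.79 FPKM), *Thrb* (1.50 FPKM), *Ppara* (1.30 FPKM) and *Ppargc1b* (1.07 FPKM). Only at 2 steps in this order were the ranges over the 10 hearts separate, between *Esrra* and *Thra* and between *Ppargc1a* and *Esrrb*. At the other steps the ranges overlapped, although *Pparg* exceeded *Thrb* in 10 of 10 hearts and *Thra* exceeded *Ppargc1a* in 8 of 10. *Ppard* was above *Pparg* in only 4 of 10 hearts, and *Ppara* above *Ppargc1b* in 5 of 10, so the order within these pairs was not settled by the hearts measured.

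The lead of *Esrra* depends in size on the gene length used. The deposited values divide its fragments by 2539 bases, whereas its exons in GENCODE M21 cover 4387 bases; with that length its mean would be 40.4 FPKM, still the highest of the members. For the other 9 members the deposited and annotated lengths were equal. Exons of *Thra* share 263 bases (5.70% of its exonic length) with the opposite-strand gene *Nr1d1*, and those of *Esrra* share 164 bases (3.74%) with *Trmt112* on the opposite strand and with *Mir6990*. The remaining 8 members share none with another annotated gene. Whether the counting used strand is not stated in the sources used here, so reads in those shared stretches cannot be assigned with certainty.

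**Figure D1:**
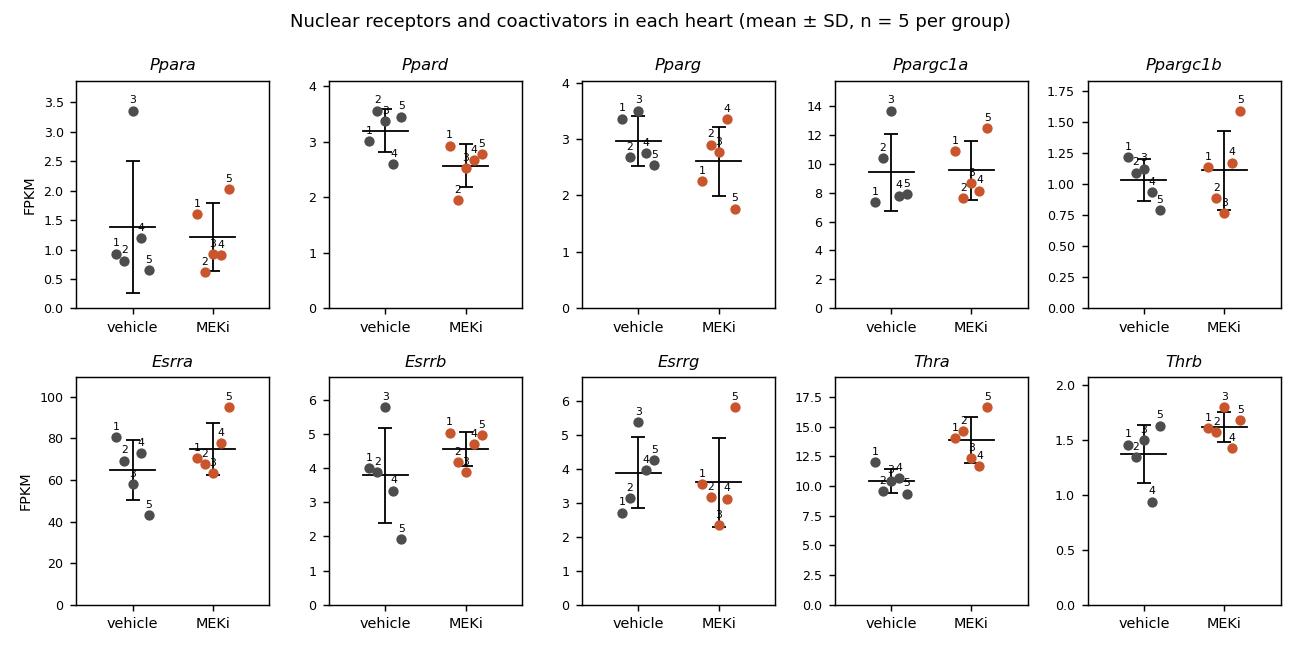
Expression (FPKM, linear axis from 0) of each receptor and coactivator in the 5 vehicle and 5 MEKi hearts; points are hearts with their replicate number, and horizontal lines with bars are the mean and SD. The MEKi hearts of *Thra* lie at 11.7 to 16.6 FPKM and those of vehicle at 9.37 to 12.0 FPKM, while vehicle 3 stands apart for *Ppara* at 3.36 FPKM.

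No member passed the threshold between MEKi and vehicle hearts. With limma on log2(FPKM + 0.1) and Benjamini-Hochberg adjustment over the 12602 genes tested, 0 of 10 members had an adjusted p under 0.05, where 0.0794% of all genes tested did. A fit with voom on the fragments recovered from the FPKM also called 0 of 10. At an unadjusted p under 0.05 there were 2 of 10 members against 7.62% of all genes tested. *Thra* was the 1 that was higher with MEKi, and *Ppard* the 1 that was lower. No member was lower at that p in 11 of the 25 alternatives that tested all 10, among them the TPM scale, quantile normalization and the replicate block. The groups did not overlap for 0 of 10 members, against 1.64% of all genes tested. The log2 fold change was above 0 for 6 members and below 0 for 4, with a median of 0.054 against 0.011 over all genes tested. That median turned to -0.019 without the 3 hearts high in atrial markers and to -0.065 without the 2 hearts high in red cell markers, with 4 members above 0 and 6 below in each case. Fold changes are differences of the mean log2(FPKM + 0.1). They need not equal the ratio of the mean FPKM, and the added 0.1 lessens the differences of genes of low level.

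**Figure D2:**
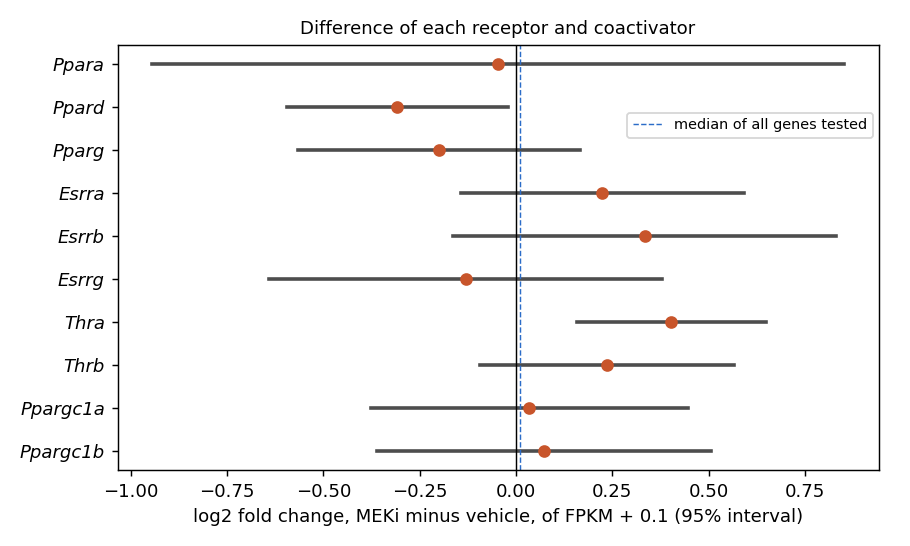
Log2 fold change of FPKM + 0.1 (MEKi minus vehicle) of each member, with its 95% interval from limma, n = 5 hearts per group; the dashed line is the median of all genes tested, 0.011. The intervals of *Thra* (0.16 to 0.65) and *Ppard* (-0.59 to -0.021) do not include 0, and the other 8 do.

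*Ppara* (chromosome 15, 85734983 to 85802819, plus strand, GRCm38) encodes PPARα, the receptor best known for driving fatty acid oxidation in heart and liver. It was at 0.930, 0.814, 3.36, 1.20 and 0.645 FPKM in vehicle hearts 1 to 5, and at 1.60, 0.623, 0.923, 0.904 and 2.02 FPKM in MEKi hearts 1 to 5. Vehicle 3 was far above every other heart, MEKi 5 and MEKi 1 came next, and the remaining hearts of both groups were intermixed. Between 36 and 183 fragments per heart stood behind these values, so the lower ones carry a sizeable counting error. The group means were 1.39 ± 1.12 and 1.21 ± 0.577 FPKM (SD over 5 hearts each; log2 fold change -0.05, SE 0.41, adjusted p = 0.985 by limma), and the 95% interval ran from -0.94 to 0.85. The sign was not settled. Without vehicle 3 the log2 fold change was 0.32 (adjusted p = 0.776 by limma). It was also above 0 without MEKi 2, MEKi 3 or MEKi 4, and the sign turned in 6 of 25 alternatives.

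*Ppard* (chromosome 17, 28232700 to 28301474, plus strand) encodes PPARδ, which acts on many of the same oxidative genes in striated muscle. Vehicle hearts 1 to 5 were at 3.01, 3.55, 3.36, 2.60 and 3.45 FPKM, and MEKi hearts 1 to 5 at 2.93, 1.95, 2.52, 2.67 and 2.78 FPKM. Of the vehicle hearts only vehicle 4 lay within the MEKi range, and 2 MEKi hearts, MEKi 2 and MEKi 3, were below all vehicle hearts. The mean was 3.19 ± 0.391 FPKM under vehicle and 2.57 ± 0.378 FPKM under MEKi (SD over 5 hearts each), a log2 fold change of -0.31 (SE 0.13, 95% interval -0.59 to -0.021). This was the strongest difference among the PPARs, but it did not pass over all genes (adjusted p = 0.619 by limma; exact permutation test, two-sided, p = 0.0476, unadjusted).

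*Pparg* (chromosome 6, 115360951 to 115490399, plus strand) encodes PPARγ, the regulator of fat cell formation, which the myocardium also expresses. It was at 3.36, 2.68, 3.50, 2.75 and 2.54 FPKM in vehicle hearts 1 to 5 and at 2.25, 2.90, 2.77, 3.35 and 1.77 FPKM in MEKi hearts 1 to 5. The groups overlapped over most of their range, with MEKi 5 lowest and vehicle 3 highest. The means of 2.96 ± 0.435 and 2.61 ± 0.612 FPKM (SD over 5 hearts each) gave a log2 fold change of -0.20 (SE 0.17, 95% interval -0.57 to 0.17, adjusted p = 0.818 by limma). Its level can be set beside a fat cell marker. *Adipoq*, the adipocyte hormone gene, was listed at 0 in vehicle 3 and vehicle 5 and was at 7.33 and 6.84 FPKM in vehicle 4 and MEKi 2, while *Pparg* in these 4 hearts lay between 2.54 and 3.50 FPKM. Macrophages express both *Ppard* and *Pparg*, and all 6 macrophage markers examined had a log2 fold change below 0, 2 of them with an unadjusted limma p under 0.05, a count that ran from 1 to 4 over the alternatives, where 3.94% of all genes tested were lower at that p. Their summed level was 343 to 576 FPKM in vehicle hearts and 277 to 343 FPKM in MEKi hearts, and its part in the values of the PPARs was not tested.

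Among the estrogen-related receptors, *Esrra* (chromosome 19, 6910977 to 6921813, minus strand), the most abundant member, was at 80.5, 69.3, 58.0, 72.9 and 43.2 FPKM in vehicle hearts 1 to 5. In MEKi hearts 1 to 5 it was at 70.3, 67.7, 63.1, 77.7 and 95.0 FPKM. The lowest heart, vehicle 5, and the highest, MEKi 5, belonged to different groups, but the other 8 were intermixed. Means of 64.8 ± 14.5 and 74.7 ± 12.5 FPKM (SD over 5 hearts each) gave a log2 fold change of 0.22 (SE 0.17, 95% interval -0.14 to 0.59, adjusted p = 0.794 by limma). Between 1597 and 3789 fragments per heart stood behind these values, the most of any member. *Trmt112*, the overlapping gene on the opposite strand, which encodes a partner of several methyltransferases, had a log2 fold change of -0.07 (SE 0.16, adjusted p = 0.945 by limma).

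*Esrrb* (chromosome 12, 86361117 to 86521628, plus strand) encodes ERRβ, known from pluripotent cells and the placenta and also found in heart. Its level was 4.00, 3.88, 5.78, 3.34 and 1.92 FPKM in vehicle hearts 1 to 5 and 5.04, 4.16, 3.88, 4.71 and 4.96 FPKM in MEKi hearts 1 to 5. All MEKi hearts lay inside the vehicle range, whose ends were vehicle 5 and vehicle 3. The mean was 3.78 ± 1.39 FPKM under vehicle and 4.55 ± 0.505 FPKM under MEKi (SD over 5 hearts each; log2 fold change 0.33, SE 0.23, 95% interval -0.16 to 0.83, adjusted p = 0.767 by limma). Without vehicle 3 the log2 fold change was 0.50 (adjusted p = 0.443 by limma), and without both hearts high in red cell markers it was 0.016 (adjusted p = 0.993 by limma).

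*Esrrg* (chromosome 1, 187608791 to 188214885, plus strand) encodes ERRγ, which is needed for the switch of the newborn heart to oxidative metabolism. It stood at 2.72, 3.14, 5.39, 3.98 and 4.26 FPKM in vehicle hearts 1 to 5 and at 3.57, 3.18, 2.36, 3.13 and 5.83 FPKM in MEKi hearts 1 to 5. The 2 highest hearts were MEKi 5 and vehicle 3, and the lowest was MEKi 3. With means of 3.90 ± 1.04 and 3.62 ± 1.32 FPKM (SD over 5 hearts each), the log2 fold change was -0.13 (SE 0.23, 95% interval -0.64 to 0.38, adjusted p = 0.932 by limma).

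The thyroid hormone receptors gave the largest positive difference of the members. *Thra* (chromosome 11, 98740638 to 98769006, plus strand) encodes the main thyroid hormone receptor of the heart, together with a splice form that does not bind hormone, and the table does not separate the forms. Vehicle hearts 1 to 5 were at 12.0, 9.59, 10.5, 10.6 and 9.37 FPKM, and MEKi hearts 1 to 5 at 14.0, 14.6, 12.4, 11.7 and 16.6 FPKM. In 4 of 5 MEKi hearts the level was above that of every vehicle heart, and MEKi 4 lay between vehicle 1 and the other vehicle hearts. The mean was 10.4 ± 1.04 FPKM under vehicle and 13.9 ± 1.96 FPKM under MEKi (SD over 5 hearts each), 33.1% higher, or a log2 fold change of 0.40 (SE 0.11, 95% interval 0.16 to 0.65).

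Against all genes this difference did not pass with limma (unadjusted p = 0.00381, adjusted p = 0.401 by limma), and *Thra* ranked 116 by p among the 12602 genes tested. An exact permutation of the group labels, two-sided, gave an unadjusted p = 0.0159, where 0.00794 is the smallest that 5 against 5 hearts allow. Over 26 alternatives of scale, filter, fit and hearts left out, the log2 fold change stayed between 0.34 and 0.48 and the adjusted limma p between 0.264 and 0.770. *Nr1d1*, which shares exonic sequence with *Thra* on the opposite strand and encodes the clock repressor REV-ERBα, was at 19.3, 19.7, 14.9, 18.0 and 11.5 FPKM in vehicle hearts 1 to 5 and at 15.1, 11.0, 8.87, 16.9 and 22.6 FPKM in MEKi hearts 1 to 5. Its log2 fold change of -0.21 (SE 0.24, adjusted p = 0.874 by limma) had the opposite sign to that of *Thra*.

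*Thrb* (chromosome 14, 17660261 to 18038090, plus strand) encodes thyroid hormone receptor β, the form that predominates in liver. It was at 1.46, 1.35, 1.50, 0.941 and 1.63 FPKM in vehicle hearts 1 to 5 and at 1.61, 1.57, 1.80, 1.43 and 1.68 FPKM in MEKi hearts 1 to 5. MEKi 3 and MEKi 5 were above all vehicle hearts, vehicle 4 was the lowest by a wide margin, and the rest overlapped. The mean was 1.38 ± 0.264 FPKM under vehicle and 1.62 ± 0.139 FPKM under MEKi (SD over 5 hearts each; log2 fold change 0.24, SE 0.15, 95% interval -0.09 to 0.57, adjusted p = 0.756 by limma).

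The coactivators had log2 fold changes near 0, with intervals that allow a change in either direction. *Ppargc1a* (chromosome 5, 51454250 to 51567726, minus strand) encodes PGC-1α, a coactivator induced by energy demand that raises mitochondrial content. Vehicle hearts 1 to 5 were at 7.33, 10.4, 13.6, 7.78 and 7.89 FPKM, and MEKi hearts 1 to 5 at 10.8, 7.60, 8.64, 8.13 and 12.4 FPKM. Vehicle 3 and MEKi 5 were highest, as for *Ppara* and *Esrrg*, and the other hearts of the groups overlapped. The means of 9.40 ± 2.65 and 9.53 ± 2.04 FPKM (SD over 5 hearts each) differed by a log2 fold change of 0.03 (SE 0.19, 95% interval -0.38 to 0.45, adjusted p = 0.975 by limma), and the sign turned in 7 of 26 alternatives.

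*Ppargc1b* (chromosome 18, 61298136 to 61400431, minus strand) encodes PGC-1β, a related coactivator with a steadier role in mitochondrial upkeep. It was at 1.22, 1.10, 1.13, 0.936 and 0.792 FPKM in vehicle hearts 1 to 5 and at 1.14, 0.891, 0.768, 1.18 and 1.60 FPKM in MEKi hearts 1 to 5. MEKi 5 was the highest heart and MEKi 3 the lowest, so the MEKi range held the whole vehicle range. With means of 1.03 ± 0.170 and 1.11 ± 0.318 FPKM (SD over 5 hearts each), the log2 fold change was 0.07 (SE 0.20, 95% interval -0.36 to 0.51, adjusted p = 0.958 by limma), and between 45 and 100 fragments per heart supported it.

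In 3 of the 4 families 1 isotype supplied most of the messenger RNA. *Esrra* made up 89.1 ± 3.41% of the summed ERR FPKM under vehicle and 90.2 ± 0.778% with MEKi (SD over 5 hearts each). These ERR shares rest on the deposited *Esrra* length of 2539 bases. With its 4387 exonic bases in GENCODE M21 the share of *Esrra* would be smaller. *Thra* accounted for 88.3 ± 2.48% and 89.4 ± 1.36% of the thyroid hormone receptor sum. *Ppargc1a* gave 89.7 ± 2.51% and 89.6 ± 1.72% of the PGC-1 sum. The PPARs were the exception, with no such leader. *Ppard* took 43.3 ± 7.95% of their sum with vehicle and 40.0 ± 3.05% with MEKi, and *Pparg* took 39.7 ± 4.48% and 41.2 ± 10.8%. No share of the 10 members differed between groups at an exact permutation p under 0.05, the smallest p being 0.278 for *Esrrg* (5.72% and 4.27% of the ERR sum), and these p-values were not adjusted.

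Some hearts deviated from their group mean in several members. Vehicle 3 was above it by 1.46 on the log2 scale for *Ppara*, 0.68 for *Esrrb*, 0.57 for *Ppargc1a* and 0.50 for *Esrrg*, and below it for *Esrra* (-0.13). MEKi 5 was above its group mean by 0.80 for *Ppara*, 0.74 for *Esrrg*, 0.52 for *Ppargc1b* and 0.41 for *Ppargc1a*, and was below it for *Pparg* (-0.50). Vehicle 5 was low in *Esrrb* (-0.86), *Ppara* (-0.76) and *Esrra* (-0.55), but above its group mean for *Thrb* (0.25), *Esrrg* (0.16) and *Ppard* (0.12). *Thra* and *Ppard* deviated least, by at most 0.27 and 0.37 in size. Vehicle 3 was also the library with the highest share of mitochondrially encoded fragments, 35.0%, where the other hearts had 24.0 to 31.1%, and the part of this in its values was not tested.

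**Figure D3:**
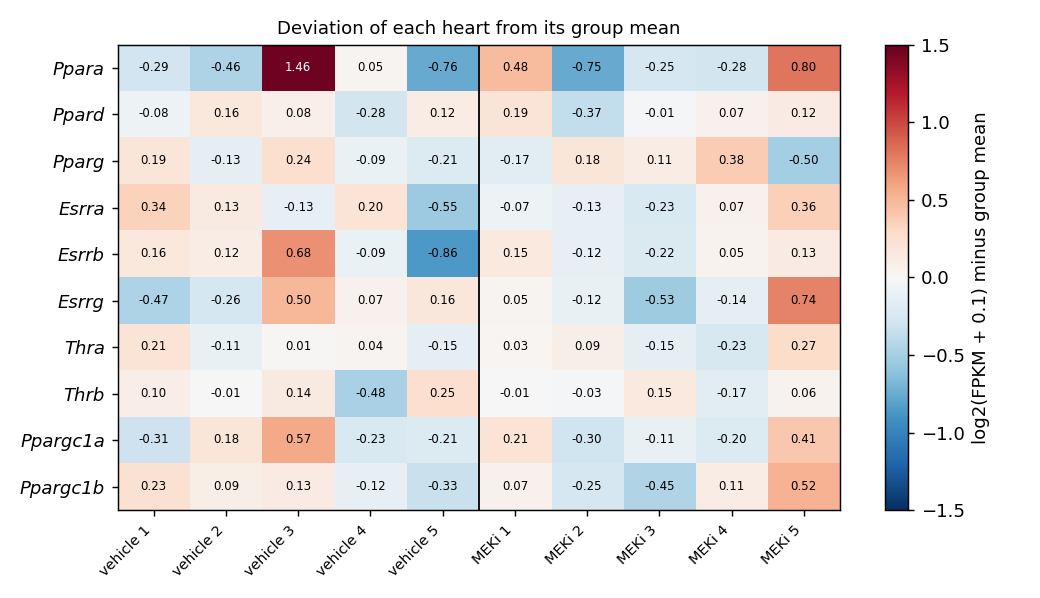
Deviation of each heart from its group mean, in log2(FPKM + 0.1), for the 10 members (lines of cells) in the 5 vehicle and 5 MEKi hearts (columns); red is above and blue below the group mean. Vehicle 3 and MEKi 5 are the hearts highest in *Ppara* (1.46 and 0.80 above their group means), *Ppargc1a* and *Esrrg*.

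Of the 45 pairs of members, 0 had a within-group correlation that passed Benjamini-Hochberg adjustment over the pairs (exact permutation of hearts within groups, n = 10 hearts). The pairs with the smallest p joined a coactivator to a receptor. *Ppargc1b* and *Esrrb* had Pearson r = 0.635 (exact permutation p = 0.00465, adjusted p = 0.114) and Spearman rho = 0.830 (exact permutation p = 0.00479, adjusted p = 0.216). For *Ppargc1b* and *Esrra* these were r = 0.768 (exact permutation p = 0.00507, adjusted p = 0.114) and rho = 0.782 (p = 0.0151, adjusted p = 0.339, exact permutation). *Ppara* and *Ppargc1a* had r = 0.847 (exact permutation p = 0.00868, adjusted p = 0.130) and rho = 0.697 (exact permutation p = 0.0412, adjusted p = 0.463). The last of these rested on vehicle 3 and MEKi 5, the 2 hearts farthest from the median of *Ppara*, without which r was 0.490. For the other pairs the 2 hearts farthest from the median of *Ppargc1b*, MEKi 3 and MEKi 5, were left out. There r was 0.792 for *Ppargc1b* with *Esrrb* and 0.700 for *Ppargc1b* with *Esrra*. Vehicle 5, the heart farthest below its group mean in *Esrrb* and *Esrra*, stayed in for both.

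For each member the genes whose deviations from the group means were most like its own were ranked by Pearson r over the 10 hearts among 12592 other genes, as a description with no test. The closest was *D330025C20Rik* to *Esrra* (r = 0.994), followed at some distance by *Xpr1* to *Ppara* (r = 0.977), *Ate1* to *Esrrg* (r = 0.976) and *Slc35e1* to *Ppargc1a* (r = 0.975). *Klhl41* was nearest to *Esrrb* (r = 0.969) and *C1qbp* to *Ppargc1b* (r = 0.946). For *Pparg* it was *Brap* (r = 0.940), for *Thrb* *P3h1* (r = 0.936), for *Ppard* *Smcr8* (r = 0.935) and for *Thra* *Ppp1r15a* (r = 0.934). The next nearest gene of each member had r between 0.929 and 0.972. Each is the highest of many values of r over few hearts, and is high in part by that choice.

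Nuclear receptors of these families recognise variants of the hexamer AGGTCA, singly or as a spaced pair, so the promoter windows of the members and of the genes named with them were searched for it. The RefSeq windows used here number 15 on GRCm38.p6 for 8 of the members, from 250 bases before to 50 bases after an annotated start. No window was available for *Thra* or *Ppargc1b*, so neither was searched. On either strand the hexamer was present in 3 of the 15, from *Pparg* and *Thrb*, against 16.3% of all 32851 windows. The longer ERR-type forms AAGGTCA and TCAAGGTCA, which contain the hexamer, were in 0 of the 15 windows, against 4.72% and 0.423% of all. Pairs of the hexamer with 1 base between (DR1, the PPAR form) or 4 bases between (DR4, the thyroid hormone receptor form) were in 0 of the 15, against 0.0396% and 0.0152%. The stretches that hold the hexamer, in capitals, are shown here on the gene's own strand, with 20 bases on each side; below those of *Pparg* and *Thrb* are those of the genes taken up further on whose windows hold it. Among the 23 windows of these other named genes it was in 7, from *Ucp3*, *Cpt1a*, *Pprc1*, *Myh7b*, *Per1*, *Clock* and *Gabpb1*, where TGACCT is the hexamer on the other strand.
*Pparg*, chr6:115361096-115361141, plus strand: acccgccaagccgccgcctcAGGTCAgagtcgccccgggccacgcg
*Pparg*, chr6:115362320-115362365, plus strand: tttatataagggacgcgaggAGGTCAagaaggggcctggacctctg
*Thrb*, chr14:17660756-17660801, plus strand: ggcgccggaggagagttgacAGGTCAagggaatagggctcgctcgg
*Ucp3*, chr7:100472822-100472867, plus strand: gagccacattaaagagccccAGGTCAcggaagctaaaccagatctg
*Ucp3*, chr7:100472927-100472972, plus strand: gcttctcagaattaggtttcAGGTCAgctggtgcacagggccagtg
*Cpt1a*, chr19:3323187-3323232, plus strand: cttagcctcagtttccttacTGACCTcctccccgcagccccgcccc
*Pprc1*, chr19:46056406-46056451, plus strand: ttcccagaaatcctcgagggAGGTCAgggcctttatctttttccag
*Myh7b*, chr2:155611177-155611222, plus strand: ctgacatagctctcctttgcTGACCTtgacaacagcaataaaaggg
*Per1*, chr11:69098792-69098837, plus strand: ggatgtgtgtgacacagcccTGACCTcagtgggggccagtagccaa
*Clock*, chr5:76303596-76303641, minus strand: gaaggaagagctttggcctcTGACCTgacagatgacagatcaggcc
*Gabpb1*, chr2:126675332-126675377, minus strand: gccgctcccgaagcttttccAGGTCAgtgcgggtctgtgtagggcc
The *Myh7b* window was the 1 of the 23 with the longer forms AAGGTCA and TCAAGGTCA, on the other strand. The hexamer begins 28 and 9 bases before the start in the *Pparg* windows and 184 bases before it in the *Thrb* window. A match describes the letters of a window and is not evidence that a receptor binds there.

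The partners through which the members act were examined next, in a list of 20 retinoid X receptors, coactivators, corepressors and factors of mitochondrial gene expression. All 20 passed the filter, 0 were called, and the median log2 fold change was 0.012. The retinoid X receptors *Rxra*, *Rxrb* and *Rxrg*, partners of PPARs and thyroid hormone receptors, had log2 fold changes of 0.08, -0.01 and -0.07. *Pprc1*, which encodes the third PGC-1 family coactivator PRC, was the 1 gene of 20 with an unadjusted p under 0.05, where 7.62% of all genes tested had one. The count was 0 under 13 of the 26 alternatives, the TPM scale, quantile normalization and the replicate block among them. *Pprc1* was at 1.30, 1.97, 1.74, 1.72 and 1.99 FPKM in vehicle hearts 1 to 5 and at 1.55, 1.26, 0.906, 1.40 and 1.47 FPKM in MEKi hearts 1 to 5 (log2 fold change -0.38, SE 0.17, adjusted p = 0.628 by limma). Vehicle 1 lay among the MEKi hearts, and the other vehicle hearts were above all of them. *Ncoa3*, a steroid receptor coactivator, had a log2 fold change of -0.17 (adjusted p = 0.699 by limma), and *Gabpb1* and *Gabpa*, subunits of a factor for nuclear genes of the respiratory chain, had 0.21 (adjusted p = 0.807 by limma) and 0.11 (adjusted p = 0.855 by limma).

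Known targets of PPARα and PPARδ, which serve fatty acid handling, included 4 genes with lower levels at an unadjusted p. Of 28 listed, 26 passed the filter and 0 were called, with 16 above 0, 10 below and a median log2 fold change of 0.08. At an unadjusted limma p under 0.05, 4 of 26 were lower with MEKi, against 3.94% of all genes tested, and 0 of 26 were higher, against 3.67%. Over the 26 alternatives these counts ran from 2 to 5 and from 0 to 3. They were 2 and 0 on a TPM scale, and 5 and 3 without vehicle 3. *Pdk4*, the kinase that switches pyruvate dehydrogenase off when fatty acids are burnt, was at 24.5, 26.1, 33.6, 55.8 and 32.3 FPKM in vehicle hearts 1 to 5. In MEKi hearts 1 to 5 it was at 16.5, 13.4, 23.4, 17.9 and 15.0 FPKM. Every MEKi heart was below every vehicle heart, with MEKi 3 and vehicle 1 close together (log2 fold change -0.95, SE 0.22, adjusted p = 0.273 by limma; two-sided exact permutation p = 0.00794, unadjusted and the smallest possible).

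The other 3 of these targets had overlapping groups. *Angptl4*, a secreted inhibitor of lipoprotein lipase, was at 2.55, 1.27, 0.599, 1.97 and 1.46 FPKM in vehicle hearts 1 to 5 and at 0.675, 0.638, 1.18, 0.459 and 0.291 FPKM in MEKi hearts 1 to 5 (log2 fold change -1.14, SE 0.38, adjusted p = 0.507 by limma). Vehicle 3, the heart with the highest *Ppara*, was the vehicle heart within the MEKi range. Only 28 to 141 fragments per vehicle heart and 15 to 57 per MEKi heart stood behind these *Angptl4* values. *Ucp3*, a mitochondrial carrier of muscle, was at 11.5, 6.86, 5.29, 9.65 and 8.22 FPKM in vehicle hearts 1 to 5 and at 4.30, 4.05, 7.62, 8.19 and 2.23 FPKM in MEKi hearts 1 to 5 (log2 fold change -0.74, SE 0.33, adjusted p = 0.635 by limma). *Cpt1a*, the liver form of the enzyme that admits fatty acids to mitochondria, was at 6.48, 7.19, 6.33, 7.05 and 9.33 FPKM in vehicle hearts 1 to 5 and at 5.75, 5.20, 6.35, 5.88 and 6.17 FPKM in MEKi hearts 1 to 5 (log2 fold change -0.29, SE 0.11, adjusted p = 0.569 by limma). For *Cpt1a* the groups met at MEKi 3 and vehicle 3, and vehicle 5 was the highest. The deposited length of *Cpt1a* was 4300 bases, against 7642 exonic bases in GENCODE M21, with which its mean would be 3.70 in place of 6.57 FPKM. For *Angptl4* the lengths were 3286 and 3541 bases, and the mean would be 1.03 in place of 1.11 FPKM.

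The muscle form *Cpt1b*, named after its values were seen, was under the filter at 0.125 to 0.744 FPKM. Of its 3372 exonic bases, 2744 (81.4%) also belong to the same-strand gene *Gm44502* in GENCODE M21, and how fragments in shared exons were counted is not stated in the sources used here. Without the 3 hearts high in atrial markers the targets split 13 above and 13 below 0, and without the 2 hearts high in red cell markers 11 above and 15 below, with 2 of 26 at an unadjusted p under 0.05 and lower with MEKi in each case.

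**Figure D4:**
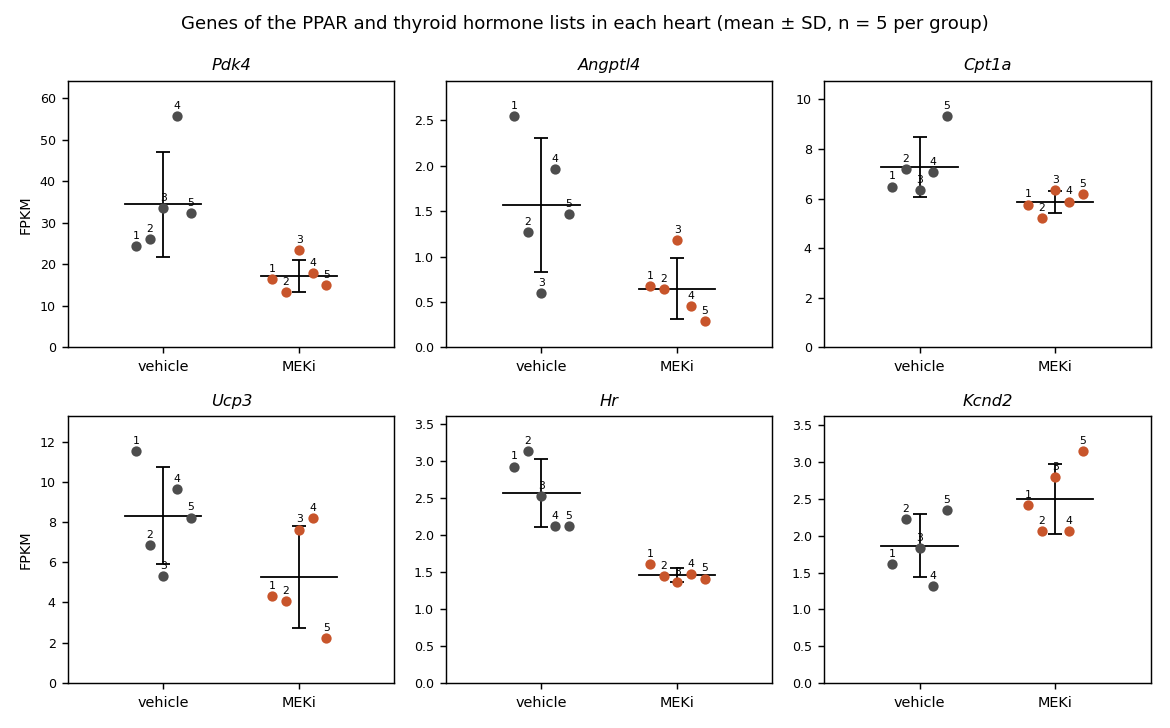
Expression (FPKM, linear axis from 0) in the 5 vehicle and 5 MEKi hearts of 4 PPAR targets (*Pdk4*, *Angptl4*, *Cpt1a* and *Ucp3*) and of *Hr* and *Kcnd2* from the thyroid hormone list; points are hearts with their replicate number, and horizontal lines with bars are the mean and SD. The groups are separate for *Pdk4* (13.4 to 23.4 FPKM with MEKi, 24.5 to 55.8 FPKM with vehicle) and for *Hr*, and overlap for the others.

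Genes of PPARγ and fat cells differed in how much they varied from heart to heart. The SD within groups on the log2 scale was 1.71 for *Pck1* and 2.24 for *Adipoq*. It was 0.34 for *Fabp4*, 0.35 for *Cidea* and 0.21 for *Lpl*, where the median of all genes tested was 0.25. Of 13 listed, 9 passed the filter, 0 were called and 0 had an unadjusted p under 0.05, with 5 above 0 and 4 below (median log2 fold change 0.09). The split was 3 above and 6 below without the 3 hearts high in atrial markers (median -0.15) and with array weights (median -0.18). *Pck1*, the gluconeogenic enzyme that fat cells use to make glycerol, had a log2 fold change of -1.31 with an SE of 0.94 (adjusted p = 0.777 by limma), since its level ran from 0 to 2.97 FPKM within the vehicle group. *Fabp4*, the fatty acid binding protein of fat cells and capillary endothelium, had a log2 fold change of -0.26 (adjusted p = 0.781 by limma). *Cidea*, a lipid droplet protein of brown fat, had -0.22 (adjusted p = 0.820 by limma), and *Lpl*, the lipoprotein lipase of the capillary wall, had 0.11 (adjusted p = 0.881 by limma).

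Listed targets of ERRs and PGC-1 comprise genes of the citric acid cycle, the respiratory chain and ATP synthase, and others such as *Acadm*, *Mfn1*, *Mfn2*, *Sod2*, *Mb* and *Vegfa*. All 25 passed the filter and 0 were called. Of them 24 had a log2 fold change above 0 and 1, *Ckmt2*, below it, with a median of 0.13 against 0.011 over all genes tested. The count of targets above 0 was 24 on a TPM scale too, but there 8500 of all 12602 genes tested were above 0, with a median of 0.086. It was 21 both after quantile normalization and after scaling on genes not encoded by mitochondria, with 6575 and 5929 of all genes tested above 0. It was 18 without the 3 hearts high in atrial markers and 17 without the 2 hearts high in red cell markers, where the median was 0.079 and 0.040. In these 2 fits 6525 and 6433 of all genes tested were above 0. Cardiomyocyte markers lay to the same side, with 7 of 8 above 0 and a median log2 fold change of 0.14, and the part of this in the ERR targets was not tested.

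*Sdha*, a subunit of succinate dehydrogenase, was the 1 of the 25 with an unadjusted p under 0.05, where 7.62% of all genes tested had one. The number higher at that p ran from 0, with the replicate block and other alternatives, to 6 without vehicle 3. *Sdha* was at 210, 220, 251, 202 and 158 FPKM in vehicle hearts 1 to 5 and at 256, 224, 227, 262 and 295 FPKM in MEKi hearts 1 to 5 (log2 fold change 0.29, SE 0.13, adjusted p = 0.638 by limma). Vehicle 5 was lowest and MEKi 5 highest, as for *Esrra*. *Cox6a2*, the muscle form of a cytochrome oxidase subunit, had a log2 fold change of 0.45 (adjusted p = 0.664 by limma). *Atp5a1*, of ATP synthase, and *Ndufs1*, of complex I, had 0.21 (adjusted p = 0.679 by limma) and 0.22 (adjusted p = 0.715 by limma).

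Heart genes that thyroid hormone raises differed among themselves in direction. Of 14 listed, 13 passed the filter and 0 were called, with 6 above 0 and 7 below. At an unadjusted p under 0.05, 3 of 13 were lower and 1 of 13 was higher with MEKi, against 3.94% and 3.67% of all genes tested. Over the 26 alternatives these counts ran from 1 to 4 and from 0 to 2, with 1 and 0 without MEKi 1, and 2 and 0 without the 2 hearts high in red cell markers. *Hr*, which encodes a corepressor of thyroid hormone receptors and is itself induced by the hormone, was at 2.92, 3.13, 2.52, 2.12 and 2.12 FPKM in vehicle hearts 1 to 5. In MEKi hearts 1 to 5 it was at 1.60, 1.44, 1.36, 1.47 and 1.41 FPKM. The MEKi hearts lay close together and all below the lowest vehicle heart (log2 fold change -0.76, SE 0.13, adjusted p = 0.0865 by limma). *Hr* thus ranked 14 by p of all genes tested and missed the threshold, which it passed when hearts were weighted by their overall noise (array weights, adjusted p = 0.0481 by limma).

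The sign of *Hr* was opposite to that of *Thra*, whose protein *Hr* binds. *Kcnd2*, a subunit of the transient outward potassium channel, was at 1.62, 2.22, 1.83, 1.31 and 2.35 FPKM in vehicle hearts 1 to 5 and at 2.41, 2.06, 2.80, 2.06 and 3.15 FPKM in MEKi hearts 1 to 5 (log2 fold change 0.41, SE 0.18, adjusted p = 0.619 by limma). *Hcn4*, the pacemaker channel, had a log2 fold change of -0.44 (SE 0.20, adjusted p = 0.640 by limma), with 0.775 to 1.22 FPKM in vehicle hearts and 0.486 to 0.972 FPKM in MEKi hearts. *Ucp3* is the remaining gene of the 3 that were lower.

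The 4 listed heart genes that thyroid hormone lowers all passed the filter, and 0 were called. *Pln*, the inhibitor of the calcium pump of the sarcoplasmic reticulum, had a log2 fold change of 0.14 (adjusted p = 0.779 by limma). *Slc8a1*, the sodium-calcium exchanger, had 0.38 (adjusted p = 0.872 by limma) and was highest in MEKi 5 and vehicle 3, the hearts highest in *Ppara*. *Myh7*, the slow β-myosin heavy chain, had 0.11 (adjusted p = 0.961 by limma), and *Myh7b* 0.01 (adjusted p = 0.995 by limma). *Slc16a10*, which encodes a thyroid hormone transporter, had a log2 fold change of -0.05 (adjusted p = 0.958 by limma).

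Around REV-ERBα, 11 of 12 clock genes passed the filter, 0 were called, and 4 were above 0 and 7 below (median log2 fold change -0.12). *Per1*, a light- and hormone-responsive clock gene, was at 4.51, 5.19, 7.26, 7.40 and 7.14 FPKM in vehicle hearts 1 to 5 and at 4.08, 3.09, 3.53, 7.02 and 3.72 FPKM in MEKi hearts 1 to 5 (log2 fold change -0.58, SE 0.22, adjusted p = 0.562 by limma). All MEKi hearts but MEKi 4 were below the vehicle range. *Per2* had a log2 fold change of -0.50 (adjusted p = 0.664 by limma), *Clock* 0.20 (adjusted p = 0.741 by limma), *Hlf* 0.19 (adjusted p = 0.741 by limma) and *Nr1d2* -0.10 (adjusted p = 0.904 by limma).

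**Figure D5:**
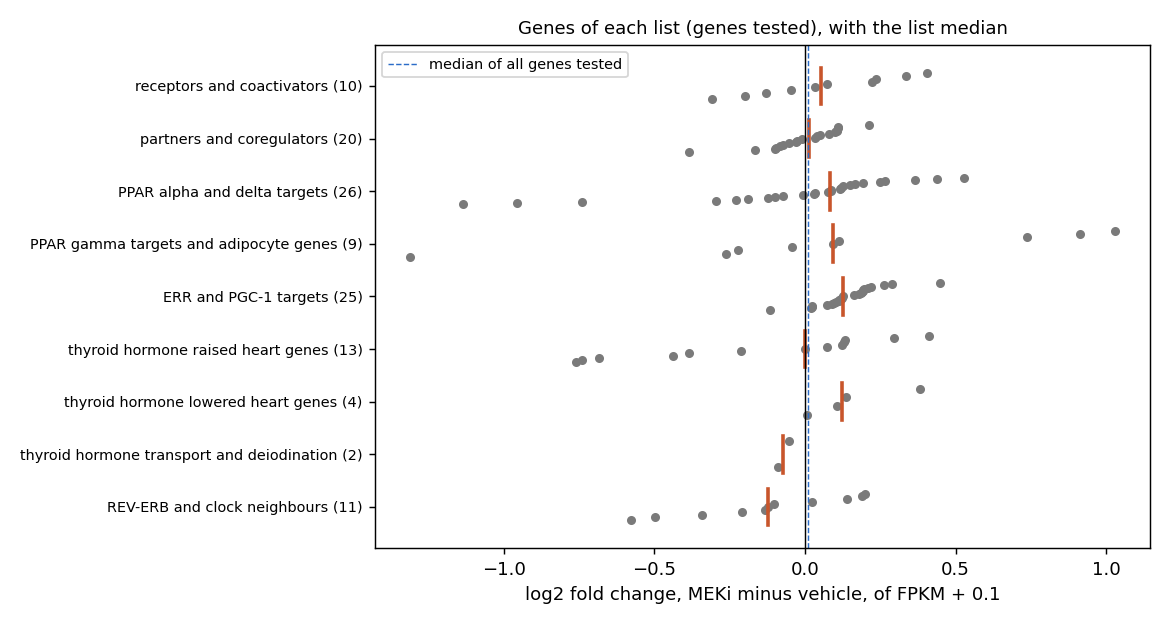
Log2 fold change of FPKM + 0.1 (MEKi minus vehicle) of every tested gene of the members and of each list; each point is a gene, the short line is the list median, the dashed line the median of all genes tested (0.011), and numbers in brackets are the genes tested. The 25 ERR and PGC-1 targets lie mostly above 0, and the lowest PPARα and PPARδ targets reach -1.14.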

How the data were processed

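RNA-seq of 5 vehicle and 5 MEKi hearts was analysed, grouped by treatment label. The authors deposited FPKM per gene and heart, normalized by gene length and library size, and the submitters' processing notes name fastp, STAR 2.5, HTSeq 0.6.1 and mm10. Strand handling is not stated in the sources used here. In each heart 100% of FPKM times length were whole multiples of a step to within 0.01, which gives fragments. The library size implied by that step was 0.925 (vehicle 3) to 1.06 (vehicle 2) times the fragments assigned to genes. It was thus not that total, and how it was set is not stated in the sources used here. The text took log2(FPKM + 0.1) where the mean over all hearts reached 0.5 FPKM, fitted with limma 3.58.1 in R 4.3.3 (eBayes with trend, two-sided, Benjamini-Hochberg, threshold 0.05) and tested on simulated data. Single genes had exact permutation tests (scipy 1.17.1, numpy 2.4.6, pandas 2.3.3, Python 3.11.15). P-values measure the spread between these hearts. All 10 columns were used, and 0 others were present.

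The members and gene lists were chosen with earlier results of these data known. Named are the members, genes overlapping them, *Nr1d1* and *Nr1d2*, sex-linked genes, the 4 genes of smallest p of each list, and the genes most like each member by r. A gene that this choice names is not reported here. Of the genes overlapping a member, those without a value in the text had at most 7 fragments in a heart. Same-numbered hearts correlated by r between -0.154 and -0.021 in their deviations over all genes tested, so no pairing by number was seen. A weak pairing would not show in such a value. Alternatives were other pseudocounts, filters, scalings and fits, a replicate block, and hearts left out. Plots were drawn with matplotlib 3.10.9.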

Additional observations from a re-analysis of the deposited data

Results flagged for a closer look

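Among 78 groups of 5 hearts examined, for the members and the genes named with them, 8 held 1 heart set apart from the others by more than 0.71 of the group's range (Dixon's test). For normally distributed values chance gives this in about 1 in 20 groups, or 3.9 of 78. FPKM need not be so distributed, and the groups share the same hearts, so these counts do not test for an excess. Of the members it concerned *Ppara* in vehicle 3, at 3.36 FPKM where the other vehicle hearts had 0.645 to 1.20 FPKM.

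The same heart stood apart for *Slc8a1*, at 15.7 FPKM against 4.68 to 7.20 FPKM. In the vehicle group, *Cpt1a* was at 9.33 FPKM in vehicle 5, *Myh7* at 60.9 FPKM in vehicle 4, the heart highest in atrial markers, and *Myh7b* at 11.4 FPKM in vehicle 1. In the MEKi group, *Pck1* was at 0.646 FPKM in MEKi 2, which also had *Adipoq* at 6.84 FPKM, and *Per1* and *Per2* were at 7.02 and 3.12 FPKM in MEKi 4. No cause was tested for any of these.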

How the results depend on the processing

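No member tested was called under any of the 26 alternatives (at a mean of at least 5 FPKM only 3 of 10 were tested, and under the rest all 10), 2 of which (the hearts high in atrial or red cell markers left out) were chosen after seeing the data. The count over all genes was 10 as reported. It was 2 at a mean of at least 5 FPKM, 18 with array weights, 0 once genes of X, Y and the mitochondrial genome were removed (limma; 924 at an unadjusted p under 0.05, and voom on all genes called 9), and 5 without the hearts high in atrial markers or in red cell markers. With each heart left out in turn it ran from 5, without vehicle 2, to 13. With the replicate number as a block it was 4, and the block changed no call of a member. Array weights called 1 gene of the thyroid-raised list, *Hr* (log2 fold change -0.78). The causes were not tested.

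The log2 fold change kept its sign under every alternative that tested the gene for *Thra*, *Ppard*, *Pparg*, *Esrra*, *Esrrb* and *Thrb*. Near 0, others turned. On a TPM scale *Ppara* was at 0.028 and *Slc16a10* at 0.021, *Ppara* was at 0.041 with array weights, and *Myh7b* was at -0.017 when scaled on genes not encoded by mitochondria. Without the hearts high in atrial markers *Ppargc1a* was at -0.037, *Ppargc1b* at -0.013, *Lpl* at -0.0061 and *Myh7b* at -0.21. Without those high in red cell markers *Ppargc1a* was at -0.11, *Ppargc1b* at -0.077 and *Myh7b* at -0.27. With each heart left out in turn *Ppara* ran from -0.25 to 0.32, *Ppargc1a* from -0.067 to 0.18, *Ppargc1b* from -0.057 to 0.18, *Esrrg* from -0.31 to 0.0030, *Myh7* from -0.085 to 0.40, *Myh7b* from -0.12 to 0.24 and *Slc16a10* from -0.12 to 0.037. On ranks the exact permutation p of *Ppard* was 0.0556. Depth limits *Ppara* and *Ppargc1b*, with as few as 36 and 45 fragments in a heart, and the target *Angptl4*, with as few as 15.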
